A study of Homo sapiens with 8 samples.

Results

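The ETS transcription factors outside the PEA3 group were followed in MDA-MB-231 cells, an established line of human triple-negative breast cancer, after the PEA3 genes ETV1, ETV4 and ETV5 had been targeted. The 10 genes were ETS1, ETS2, ELK1, ELK3, ELK4, ELF1, ELF4, ETV6, GABPA and ERF, relatives chosen as possible compensators for the targeted factors. They were taken by symbol from the 61228 genes of the deposited table of raw counts. All 10 were found there, and all 10 were among the 15568 genes with enough counts to be tested. The 8 libraries of messenger RNA formed 4 groups of 2, made of control or knockout cells on plastic (monolayers) or in collagen I (gels). Control cells had been nucleofected with control guide RNAs, and knockout cells with the nuclease Cas9 and guides to all 3 PEA3 genes. Only the gels among the controls have a label that names Cas9, so a difference in Cas9 cannot be told apart from the other differences wherever control monolayers enter. The medium was DMEM/F12 with serum for all groups. Cells were freed from gels with collagenase I and frozen as pellets before RNA was isolated, whereas monolayers were collected directly, so culture and harvest cannot be told apart either. The sources used here do not say whether the knockout cells were a mixed population or a clone, nor whether replicate libraries were made from separate cultures. The p-values therefore measure the spread between these libraries, which may be technical.

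ETS factors share a winged helix-turn-helix domain that reads a short core around GGAA, so different members of the family can occupy the same sites. Several of them are phosphorylated by MAP kinases. The ternary complex factors ELK1, ELK3 and ELK4 bind next to the serum response factor SRF on immediate-early genes, GABPA binds with its partner GABPB on many housekeeping promoters, and ETV6 and ERF mainly repress. In breast cancer cells ETS1 is known for its link to invasion and to protease genes.

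Stretches of promoter are shown for 3 genes. ELK1 and ELF4 passed the test in opposite directions in both cultures, and the ELK4 stretch holds the motif searched. RefSeq's table (GRCh38.p14) had a promoter for 9 of the 10 genes, all but ETS1. The motif searched was CCGGAA on either strand (TTCCGG on the other), in the 250 bases before each start. Capitals mark its matches, and each sequence runs 5′ to 3′ along the gene's own strand. The shorter core GGAA is not marked where it stands outside this motif, and the ELK1 and ELF4 stretches also hold it. ELK1 lies on the minus strand at chrX:47650605-47650854, ELF4 on the minus strand at chrX:130111859-130112108 and ELK4 on the minus strand at chr1:205632012-205632261, and none of the 3 stretches overlaps an annotated exon.
ELK1: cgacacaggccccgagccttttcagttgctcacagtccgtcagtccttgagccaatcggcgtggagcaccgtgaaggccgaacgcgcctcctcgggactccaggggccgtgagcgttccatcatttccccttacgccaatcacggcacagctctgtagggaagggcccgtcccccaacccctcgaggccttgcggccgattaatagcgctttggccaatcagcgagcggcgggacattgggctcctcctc
ELF4: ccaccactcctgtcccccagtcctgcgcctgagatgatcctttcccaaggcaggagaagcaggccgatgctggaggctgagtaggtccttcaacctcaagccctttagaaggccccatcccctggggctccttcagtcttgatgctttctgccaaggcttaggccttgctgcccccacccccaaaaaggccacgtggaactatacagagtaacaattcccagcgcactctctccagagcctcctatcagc
ELK4: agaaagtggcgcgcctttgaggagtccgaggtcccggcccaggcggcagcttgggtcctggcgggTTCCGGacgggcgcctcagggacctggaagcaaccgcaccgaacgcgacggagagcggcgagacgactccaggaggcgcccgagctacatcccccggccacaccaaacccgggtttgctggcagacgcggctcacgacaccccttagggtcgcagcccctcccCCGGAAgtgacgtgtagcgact
The ELK4 stretch holds 2 matches, 185 to 180 bases before the start on the strand opposite to the gene and 22 to 17 bases before it on the gene's own strand. GABPA has 1 match, 65 to 60 bases before its start, shown here with 12 bases on either side. Its whole window lies in annotated exons of GABPA and ATP5PF, because RefSeq's start for GABPA lies inside the gene as GENCODE places it. The ELF1 window (chr13:40982283-40982532) also lies inside its gene, which GENCODE ends at 41061440. RefSeq's start for ELF4 lies upstream of the gene as GENCODE places it, ending at 130110716. The 9 windows therefore need not be the promoters used in these cells.
GABPA: cctccgctctacTTCCGGccctggctccgc
The other 7 genes with a promoter in the table, ELK1 and ELF4 among them, have none in this window. Of 35116 promoters of this length, 14.5% hold the motif, against 2 of 9 here. The longer motif CCGGAAGT, which contains the first, lies in the same 2 promoters and in 3.42% of all. A match is a description of letters and says nothing of which factor binds.

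Library totals ran from 15824504 to 23896899 counts, and the biological coefficient of variation across genes was 4.03%. Levels are CPM, which puts counts of all libraries on one scale with TMM factors of 0.970 to 1.04. Group values are means with the SD of both libraries. Differences are log2 fold changes with the SE of the edgeR fit. The targeted genes ETV1, ETV4 and ETV5 were looked at as a check of the labels. ETV1 had 202 ± 3.20 CPM in control and 143 ± 11.2 in knockout monolayers, and 219 ± 3.26 and 139 ± 2.12 in gels (SD, n = 2). ETV1 and ETV4 fell in both cultures (edgeR adjusted p between 3.10e-12 and 9.94e-07). ETV5 passed in neither culture, with 115 CPM in control and 117 in knockout monolayers, and 114 and 116 in gels. The check therefore held for ETV1 and ETV4 but not for ETV5. VIM, a mesenchymal filament gene, stood at 6003 CPM in the control monolayers, and the luminal genes ESR1 at 0.0713 and CDH1 at 0.265. Other luminal markers were well expressed there, KRT19 at 570.2, KRT8 at 407 and KRT18 at 297 CPM, and the luminal list summed to 1377 to 1743 CPM in a library. Of the mesenchymal markers SPARC was at 0.563 CPM. Markers of leukocytes, endothelium and fibroblasts summed to 2.98 to 8.45, 12.5 to 25.9 and 12.3 to 25.3 CPM in a library.

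Per length, ETS1 and ELK3 stood above the other genes and ETV6 lowest. ETS1 had 41.9 CPM per kb of exons over the 8 libraries, ELK3 41.5 and ERF 22.0. ELK1 followed with 18.0, ELF1 with 15.2 and ELF4 with 10.9. GABPA had 7.44, ETS2 7.20, ELK4 6.26 and ETV6 4.27 CPM per kb. The libraries of ETS1 ran from 36.1 to 49.6 and those of ELK3 from 38.0 to 46.4, so these neighbours overlap per kb of exons. GABPA (6.52 to 8.03), ETS2 (5.79 to 8.44) and ELK4 (5.42 to 7.14) also overlap with each other. The PEA3 genes lay in the middle of this order, at 21.4 for ETV4, 19.9 for ETV5 and 18.3 for ETV1. Divided by the length of the principal transcript instead, ETS1 came to 134 CPM per kb and ELK3 to 45.9. The nearness of these 2 genes thus depends on the length used. ERF then moved from rank 3 to rank 5 of the 13 genes, below ETV4 and ETV5, and ETS2 moved above GABPA.

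**Figure D1:**
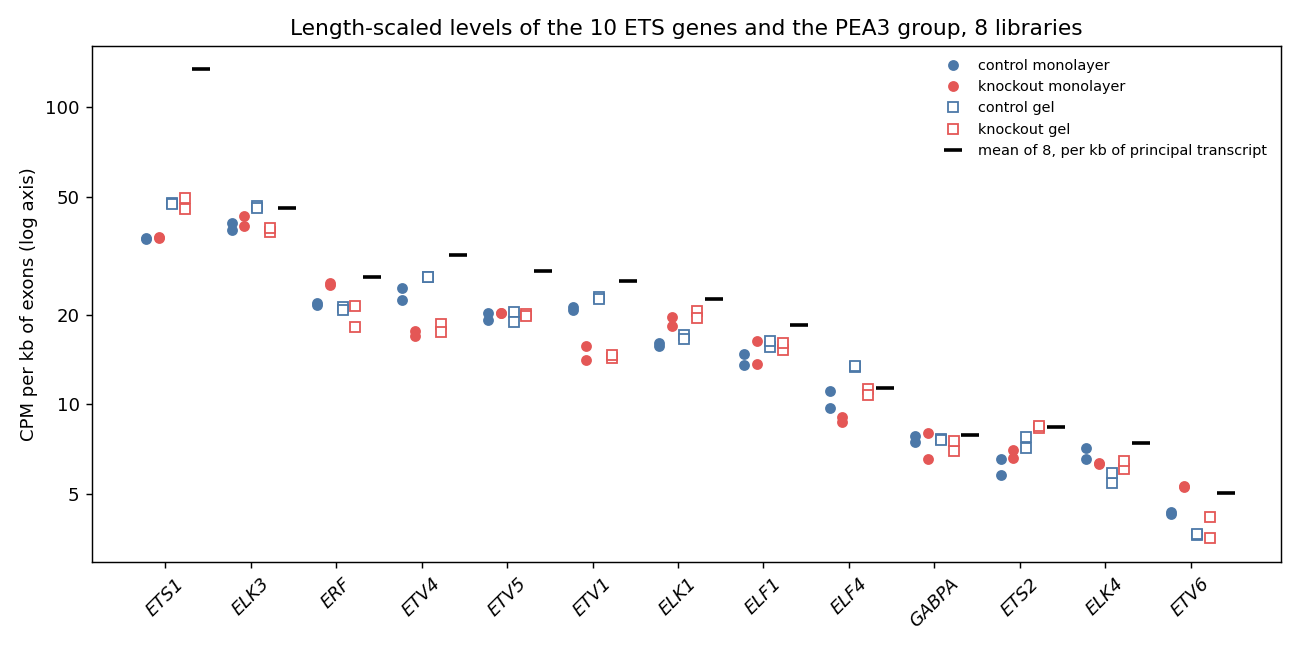
CPM per kb of exons (log axis) of the 10 ETS genes and ETV1, ETV4 and ETV5 in each of 8 libraries, coloured by control or knockout and filled for monolayers, with a bar for the mean per kb of principal transcript. ETS1 and ELK3 stand highest, at means of 41.9 and 41.5, and ETV6 lowest at 4.27.

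With the PEA3 genes targeted, 4 of the 10 genes passed the test in monolayers and 3 in gels, and no difference exceeded 0.30 in size on the log2 scale. In monolayers ELK1, ETV6 and ERF rose and ELF4 fell, which is 3 higher and 1 lower of 10, against 9.60% higher and 9.60% lower of all genes tested. In gels ELK1 rose and ELK3 and ELF4 fell, 1 higher and 2 lower of 10, against 11.5% and 12.4% of all genes. ELK1 and ELF4 were the genes that passed in both cultures. The median log2 difference of the 10 genes was 0.08 in monolayers (0.01 over all genes) and -0.02 in gels (-0.00 over all genes).

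Between gels and monolayers 6 of the 10 genes passed in control cells and 5 in knockout cells. From control monolayers to control gels ETS1, ETS2, ELK3 and ELF4 rose and ELK4 and ETV6 fell, 4 higher and 2 lower of 10, against 16.0% and 10.7% of all genes. Scaled by library size alone, the calls over all genes in that comparison turned from 2486 higher and 1672 lower to 1239 higher and 2804 lower. From knockout monolayers to knockout gels ETS1, ETS2 and ELF4 rose and ETV6 and ERF fell, 3 higher and 2 lower, against 20.1% and 17.9% of all genes. The difference between the knockout effects of the cultures passed for ELK3 and ERF, 0 higher and 2 lower, against 2.67% and 3.94% of all genes. These comparisons share libraries (both culture comparisons use the same groups as the knockout comparisons), so their results are set side by side and are not separate evidence.

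**Figure D2:**
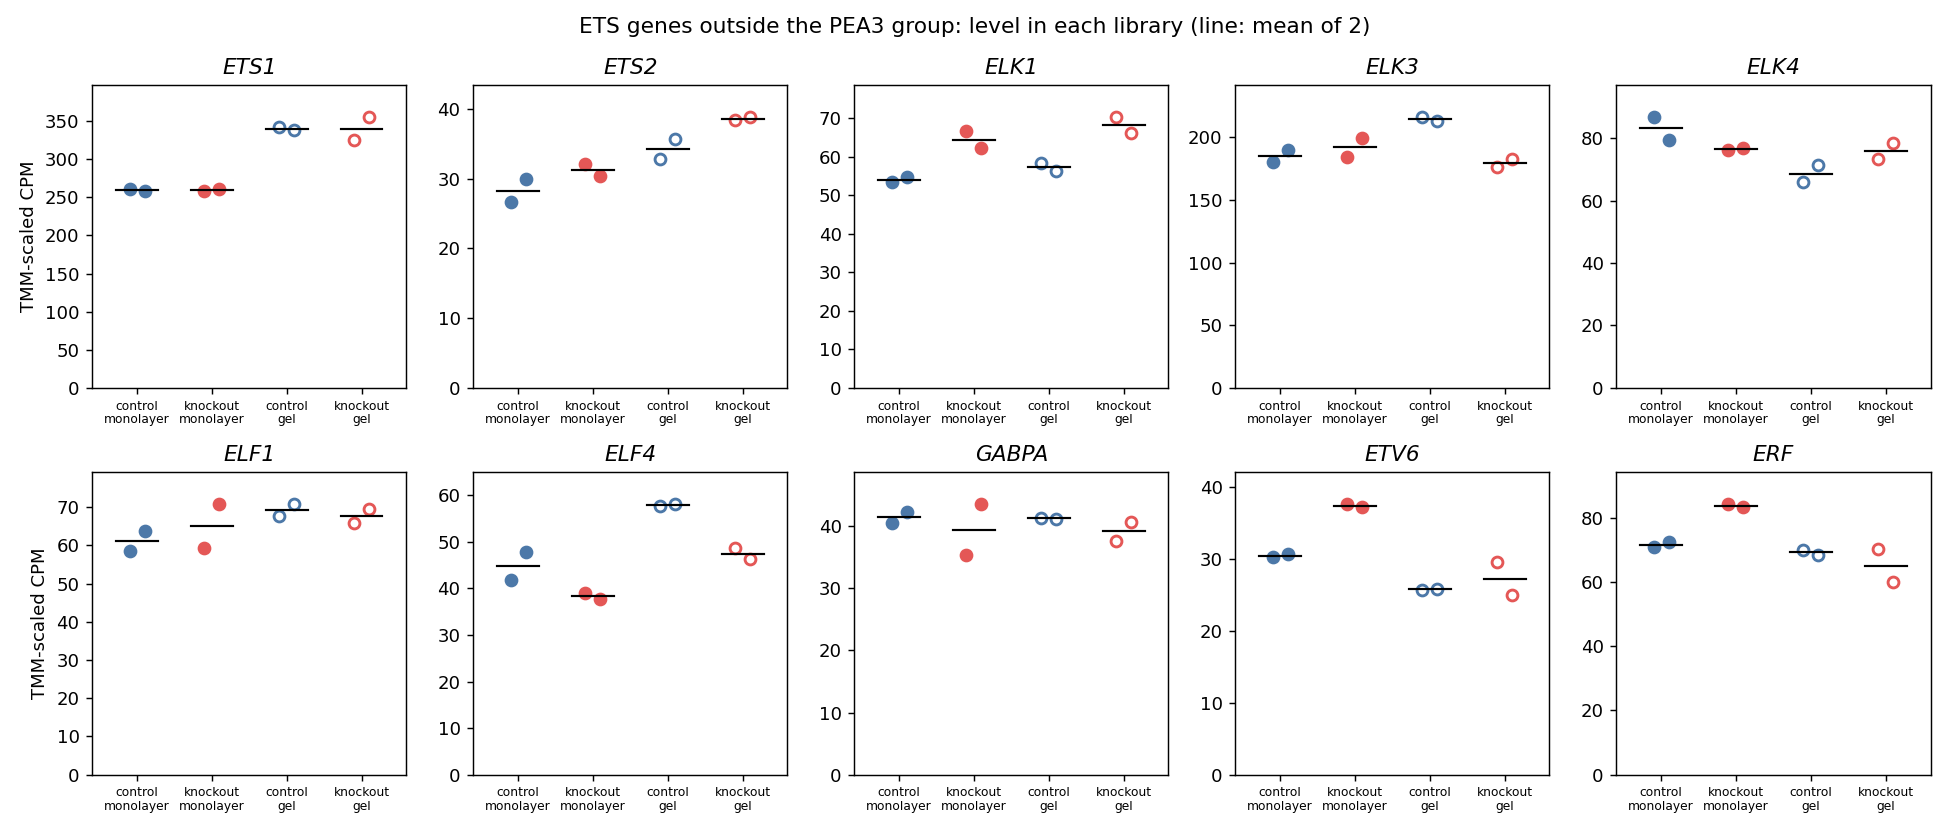
TMM-scaled CPM (y axis, from 0) of each of the 10 genes in the 8 libraries, in the order control monolayer, knockout monolayer, control gel, knockout gel, with a line at the mean of 2. ETS1 is higher in all 4 gels than in all 4 monolayers, ELK1 is higher in all 4 knockout libraries, and ELK3 is highest in the control gels.

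ETS1, an activator linked to invasion, differed with culture and had a knockout difference near 0. Control monolayers had 260.3 and 258 CPM of ETS1 and knockout monolayers 259 and 261. Control gels had 342 and 338 CPM and knockout gels 325 and 355. All 4 gels lie above all 4 monolayers, and the control and knockout libraries of each culture overlap. From monolayers to gels ETS1 rose by 0.39 ± 0.047 (log2) in control cells (edgeR adjusted p = 8.63e-08) and by 0.39 ± 0.047 in knockout cells (edgeR adjusted p = 6.09e-08), about 31.2% and 30.7%. Its knockout difference was 0.00 in monolayers (95% interval -0.09 to 0.10) and 0.00 in gels (-0.09 to 0.09). In bulk RNA, fewer cells with a transcript and less transcript per cell cannot be told apart.

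ETS2, the close relative of ETS1, rose with culture in both kinds of cell. Control monolayers had 26.6 and 30.0 CPM of ETS2, knockout monolayers 32.1 and 30.3, control gels 32.8 and 35.8, and knockout gels 38.4 and 38.8. Within each culture both knockout libraries lie above both control libraries, and within each kind of cell both gels lie above both monolayers. The gel increase was 0.28 ± 0.079 (log2) in control cells (edgeR adjusted p = 0.00677) and 0.31 ± 0.079 in knockout cells (edgeR adjusted p = 0.00227). The call in control cells was lost with library size alone (0.0578), with DESeq2 (0.0592), and without control monolayer 1 (0.253) or control gel 2 (0.116). The knockout difference of ETS2 was 0.15 ± 0.081 in monolayers (edgeR adjusted p = 0.206) and 0.17 ± 0.077 in gels (edgeR adjusted p = 0.102), which did not pass. In gels it did pass once corrected for length and GC (adjusted p = 0.0376).

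Genes of the immediate-early and dissociation response moved with culture beside these gel differences. Of 17 tested genes of that list, 13 were higher and 1 lower in control gels than in control monolayers, against 16.0% and 10.7% of all genes. The list summed to between 1631 and 1720 CPM in the monolayers and to between 3754 and 3958 in the gels. Its part in the gel results of the ETS genes was not tested.

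Among the ternary complex factors, ELK1 rose in knockout cells in both cultures, ELK3 fell in gels, and ELK4 did not pass in either culture. ELK1 had 53.5 and 54.8 CPM in control monolayers, 66.7 and 62.3 in knockout monolayers, 58.3 and 56.3 in control gels, and 70.2 and 66.2 in knockout gels. All 4 knockout libraries lie above all 4 control libraries. The knockout difference was 0.25 ± 0.064 (log2) in monolayers (edgeR adjusted p = 0.00398) and 0.25 ± 0.063 in gels (edgeR adjusted p = 0.00298), increases of 19.2% and 19.0%, and the 2 differed by -0.00 (95% interval -0.18 to 0.18). ELK1 lost its call in monolayers without control monolayer 1 (0.0752) or knockout monolayer 1 (0.107), and in gels without control gel 2 (0.0616). Between gels and monolayers ELK1 differed by 0.08 in either kind of cell, without passing. ELK2AP, ELK2BP and ELK1P1, related copies of ELK1, held 0 CPM in all libraries.

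ELK3, the ternary complex factor known mainly as a repressor until it is phosphorylated, had 180.3 and 190.2 CPM in control monolayers and 185 and 199.6 in knockout monolayers. Control gels had 216 and 213 CPM, and knockout gels 177 and 183. Both control gels lie above every other library, and the knockout gels overlap with the control monolayers. ELK3 was 0.21 ± 0.049 higher on the log2 scale in control gels than in control monolayers (edgeR adjusted p = 0.00137), and 0.26 ± 0.049 lower in knockout gels than in control gels, a change of -16.2% (edgeR adjusted p = 0.00018). In monolayers the knockout difference was 0.05 ± 0.050 (edgeR adjusted p = 0.499). The 2 knockout effects differed by -0.31 ± 0.070 (edgeR adjusted p = 0.00418).

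The fall of ELK3 in knockout gels passed in 16 of 16 alternatives. Its gel increase in control cells was lost without control monolayer 1 (0.0702). The difference between the cultures passed in 13 of 15 alternatives and was lost without control monolayer 1 (0.0619) or control gel 1 (0.0524). From knockout monolayers to knockout gels ELK3 differed by -0.10 ± 0.050 (edgeR adjusted p = 0.124), and this passed with library size alone (0.0077), with a mean of at least 5 CPM (0.0177) and with length and GC corrected (0.0396). An antisense gene shares 4.50% of the exons of ELK3, and the strand setting of the counting is not stated in the sources used. That antisense gene is not found under its GENCODE name in the deposited counts.

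ELK4, whose promoter stretch with 2 matches to CCGGAA is printed above, had 86.7 and 79.5 CPM in control monolayers. Knockout monolayers had 76.4 and 77.0 CPM. Control gels had 65.8 and 71.3 CPM and knockout gels 73.4 and 78.5. Control monolayers are highest and control gels lowest, with the knockout libraries between them. From control monolayers to control gels ELK4 fell by 0.28 on the log2 scale (SE 0.061, edgeR adjusted p = 0.00067), which was lost without control gel 1 (0.0602). In knockout cells the same difference was -0.01 ± 0.062 (edgeR adjusted p = 0.882). The knockout difference was -0.12 in monolayers (edgeR adjusted p = 0.182) and 0.15 in gels (edgeR adjusted p = 0.0797). The latter passed without control monolayer 1 (0.0481) or knockout gel 1 (0.0273).

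The knockout effects on ELK4 differed between the cultures by 0.27 ± 0.087, with an edgeR adjusted p of 0.0572 just above the threshold of 0.05. This difference did pass with relative log expression factors (0.0434), library size alone (0.0441), no filter on low counts (0.0384), the replicate block (0.0385), and without control monolayer 2 (0.0352) or knockout gel 1 (0.0119). ELK4 shares 422 bases of exon with MFSD4A on the opposite strand, a gene of at most 0.161 CPM here.

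ELF4, an ETS activator best known in lymphoid and interferon responses, fell with the knockout and rose with gel culture. It had 41.9 and 47.8 CPM in control monolayers, 39.0 and 37.7 in knockout monolayers, 57.8 and 58.1 in control gels, and 48.7 and 46.2 in knockout gels. Within each culture both knockout libraries lie below both control libraries. Control gels are highest and knockout monolayers lowest of the groups. The knockout difference was -0.22 ± 0.073 (log2) in monolayers (edgeR adjusted p = 0.0311) and -0.29 ± 0.069 in gels (edgeR adjusted p = 0.00196), and the 2 differed by -0.07 (95% interval -0.27 to 0.13). The gel increase was 0.38 ± 0.069 in control cells (edgeR adjusted p = 8.81e-05) and 0.31 ± 0.073 in knockout cells (edgeR adjusted p = 0.00102).

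The fall of ELF4 in monolayers was lost with DESeq2 (adjusted p = 0.0949) and without control monolayer 2 (0.358), knockout monolayer 1 (0.0568) or knockout monolayer 2 (0.186). Without control monolayer 2 the log2 difference was -0.13. In gels the fall of ELF4 passed in 16 of 16 alternatives, and so did both gel increases.

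ELF1, a paralogue of ELF4, had 58.6 and 63.8 CPM in control monolayers, 59.4 and 70.8 in knockout monolayers, 67.8 and 70.7 in control gels, and 65.8 and 69.5 in knockout gels. The knockout libraries overlap with the controls in both cultures. No comparison of ELF1 passed, and the nearest was the gel difference in control cells, 0.18 ± 0.070 on the log2 scale (edgeR adjusted p = 0.0508). That one passed in 6 of 16 alternatives, with adjusted p values of 0.0227 to 0.486 over all 16. The 6 were the correction for length and GC content (0.0249), the fit of only the 2 groups compared (0.0439), the replicate block (0.0227), and the fits without control monolayer 2 (0.0306), knockout monolayer 2 (0.0258) or knockout gel 2 (0.0307). ELF1 shares 167 bases of exon with WBP4 on the opposite strand, at 40.2 to 57.2 CPM.

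GABPA, which pairs with GABPB to drive genes of mitochondria and translation, had 40.6 and 42.3 CPM in control monolayers, 35.4 and 43.6 in knockout monolayers, 41.3 and 41.2 in control gels, and 37.7 and 40.8 in knockout gels. Knockout monolayer 1 is the lowest of the 8 and knockout monolayer 2 the highest. The knockout difference was -0.06 in monolayers (95% interval -0.23 to 0.10) and -0.07 in gels (-0.23 to 0.09), and none of the 5 comparisons passed in any alternative. GABPA shares 413 bases of exon, 7.61% of its exons, with ATP5PF on the opposite strand, a gene of 50.1 to 55.4 CPM here, so part of its counts is uncertain without the strand setting.

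ETV6 and ERF both rose in knockout monolayers and were lower in knockout gels than in knockout monolayers. ETV6, which represses through corepressors and is known from fusions in leukaemia, had 30.2 and 30.6 CPM in control monolayers and 37.6 and 37.2 in knockout monolayers. Control gels had 25.6 and 25.8 CPM and knockout gels 29.5 and 25.0. Knockout monolayers are highest, and the knockout gels fall on either side of the control gels. The knockout difference was 0.30 ± 0.079 (log2) in monolayers, 23.0% (edgeR adjusted p = 0.00631), and 0.08 ± 0.084 in gels (edgeR adjusted p = 0.537), and the difference between these did not pass (-0.22 ± 0.12, edgeR adjusted p = 0.302). The gel difference was -0.24 ± 0.082 in control cells (edgeR adjusted p = 0.0273) and -0.46 ± 0.081 in knockout cells (edgeR adjusted p = 3.01e-05).

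The rise of ETV6 in monolayers was lost without control monolayer 1 (0.0739) or knockout monolayer 1 (0.0563). Its fall in control gels was lost with DESeq2 (0.0938) and without control monolayer 1 (0.0843), control monolayer 2 (0.0928), control gel 1 (0.155) or control gel 2 (0.114). The fall in knockout gels passed in 16 of 16 alternatives.

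ERF, a repressor that leaves the nucleus when ERK phosphorylates it, had 71.1 and 72.4 CPM in control monolayers and 84.3 and 83.3 in knockout monolayers. Control gels had 70.2 and 68.4 CPM and knockout gels 70.4 and 59.9. Both knockout monolayers lie above all other libraries, and knockout gel 2 lies below them all. ERF rose by 0.23 ± 0.064 (log2) in knockout monolayers, 16.9% (edgeR adjusted p = 0.0104), and differed by -0.09 ± 0.065 in gels (edgeR adjusted p = 0.346). The 2 effects differed by -0.32 ± 0.091 (edgeR adjusted p = 0.0285). From knockout monolayers to knockout gels ERF fell by 0.36 on the log2 scale (SE 0.065, edgeR adjusted p = 3.03e-05), which passed in 16 of 16 alternatives, and in control cells it differed by -0.05 (edgeR adjusted p = 0.608).

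The rise of ERF in monolayers was lost without control monolayer 1 (0.112) or knockout monolayer 1 (0.0859), and with length and GC corrected, where it was 0.15 (adjusted p = 0.052). Its difference between cultures passed in 7 of 15 alternatives. It was -0.16 after that correction (adjusted p = 0.244), was lost with DESeq2 (0.0935), and was lost without control monolayer 1 (0.143), knockout monolayer 1 (0.131), knockout monolayer 2 (0.0512), control gel 1 (0.156), control gel 2 (0.0757) or knockout gel 2 (0.242), where it was -0.21. The principal transcript of ERF is 64.0% GC, the highest share of the 10 genes. Across 15173 genes, the difference between the cultures followed GC content with a Spearman rho of -0.239, a description over genes that are not independent. ERF shares 155 bases of exon, 4.70% of its exons, with the protein-coding gene AC006486.1 on the same strand. A strand setting could not separate the 2, so part of the counts of ERF is uncertain. AC006486.1 is not found under that name in the deposited counts, so its level is not known here.

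**Figure D3:**
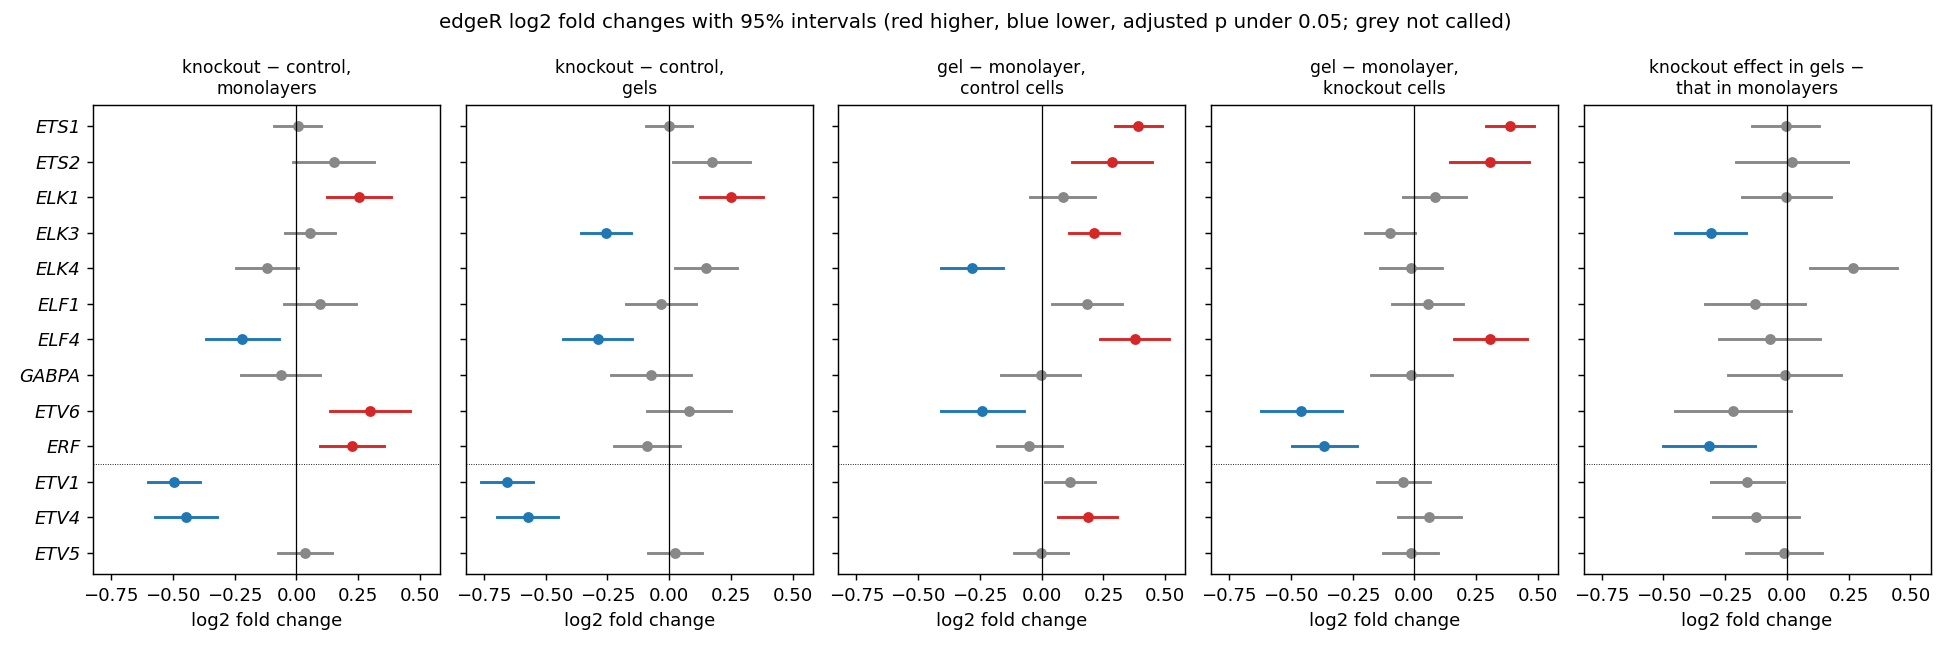
edgeR log2 fold changes (x axis) with 95% intervals of the 10 genes and of ETV1, ETV4 and ETV5 below the dotted line, in 5 comparisons, red where higher and blue where lower with an adjusted p under 0.05. ELK1 lies at 0.25 in both knockout panels, ELF4 at -0.22 and -0.29, and ETV1 at -0.50 and -0.66, farther from 0 than any of the 10 genes there.

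**Figure D4:**
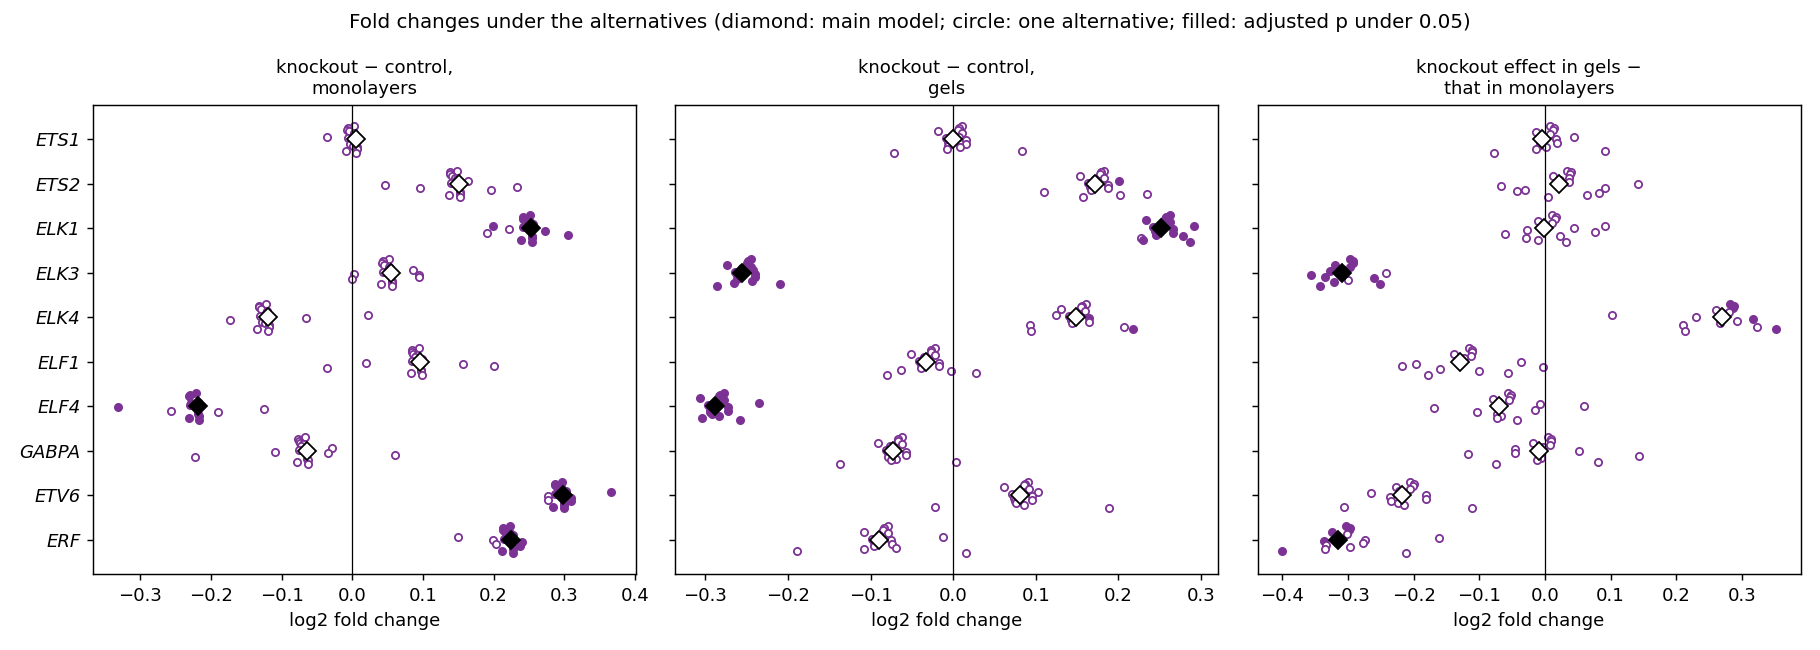
Log2 fold changes (x axis) of the 10 genes in the knockout comparisons and their difference, as reported (diamonds) and under 15 or 16 alternatives (circles), filled where the adjusted p is under 0.05. The fall of ELK3 in gels is filled throughout, at -0.29 to -0.21, while circles of the interaction of ERF run from -0.40 to -0.16 and are partly empty.

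Summed over the 10 genes, the knockout and control libraries were close. The sums were 850 and 870 CPM in control monolayers, 874 and 903 in knockout monolayers, 977 and 979 in control gels, and 936 and 962 in knockout gels. In monolayers both knockout sums lie above the control sums, and in gels both lie below them. The 3 PEA3 genes summed to 393 and 411 CPM in control monolayers and to 316 and 330 in knockout monolayers, and to 437 and 423 in control and 322 and 319 in knockout gels. ETS1 and ELK3 weigh most in the sum of the 10 genes, since they have the highest CPM.

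The 16 remaining ETS genes were mostly silent or nearly so in these cells. FEV, ETV3L, SPI1 and SPIC had no counts in any of the 8 libraries, which allows up to 0.0197 CPM over all libraries by counting error alone, and 7 of the 16 genes were tested. EHF, an epithelial ETS factor, rose in knockout monolayers from 66.1 ± 2.99 to 81.9 ± 6.33 CPM (log2 0.31, edgeR adjusted p = 0.000335). EHF was also lower in knockout gels than in knockout monolayers (log2 -0.41, edgeR adjusted p = 4.31e-06). SPDEF, another epithelial member, rose from 33.1 CPM in control monolayers to 43.5 in control gels (log2 0.40, edgeR adjusted p = 0.000183). ELF3 fell from 2.72 to 0.851 CPM between these groups. In the order of the comparisons above, 1, 0, 1, 0 and 0 of the 7 were higher and 0, 0, 1, 2 and 2 lower. Over all genes tested the shares were 9.60%, 11.5%, 16.0%, 20.1% and 2.67% higher. The shares lower were 9.60%, 12.4%, 10.7%, 17.9% and 3.94%.

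Of 21 tested partners and regulators of ETS factors, 4 rose and 2 fell in knockout monolayers, against 9.60% higher and 9.60% lower of all genes. In knockout gels 5 rose and 3 fell, against 11.5% and 12.4%, so the falls are near the share of all genes in both cultures. The median log2 differences were 0.05 and 0.06. SRF, the partner of the ELK factors, did not pass with the knockout, at 168 CPM in control and 173 in knockout monolayers and 181 and 187 in gels (these levels were chosen after their values were seen, as were those of GABPB1). GABPB1, a partner of GABPA, had 24.5 and 25.7 CPM in monolayers and 29.6 and 31.5 in gels, without passing for the knockout. GABPB2, the other GABPA partner in the list, did pass. It rose from 14.4 to 19.2 CPM in knockout monolayers (log2 0.40, edgeR adjusted p = 0.0042). That call was lost without knockout monolayer 1, where the log2 difference was 0.29. In gels it rose from 16.6 to 20.4 CPM (log2 0.30, edgeR adjusted p = 0.0234), values also chosen after they were seen. USF1, a factor that cooperates with ETS1, rose from 52.4 to 65.3 CPM in knockout monolayers (log2 0.31, edgeR adjusted p = 0.00136), a call lost without control monolayer 2 (0.0532).

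CIC, a repressor of PEA3 genes that ERK signalling relieves, fell in knockout gels from 124 to 103 CPM (log2 -0.26, edgeR adjusted p = 0.000369). CBFB, the partner of RUNX1, which binds beside ETS1, rose there from 116 to 137 CPM (log2 0.23, edgeR adjusted p = 0.00105). From control monolayers to control gels RUNX1 rose from 85.8 to 108 CPM (log2 0.33, edgeR adjusted p = 3.03e-05). Of the 21 genes, 6 rose and 3 fell in that comparison, against 16.0% and 10.7% of all genes. From knockout monolayers to knockout gels 7 rose and 4 fell, against 20.1% and 17.9%. The coactivator gene CREBBP rose in the latter from 48.7 to 68.8 CPM (log2 0.50, edgeR adjusted p = 5.01e-07).

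Genes that the ETS factors are known to bind gave no single direction with the knockout. Of 16 serum response genes with sites for the ternary complex factors, 6 rose and 2 fell in knockout monolayers (9.60% and 9.60% of all genes), with a median of 0.11. In gels 5 rose and 1 fell (11.5% and 12.4% of all genes), with a median of 0.12. CCN1, which encodes a matricellular protein, fell from 1110 to 764 CPM in knockout monolayers (log2 -0.54, edgeR adjusted p = 4.73e-11). In knockout gels it rose from 1594 to 1811 CPM (log2 0.18, edgeR adjusted p = 0.00276), a call lost without control gel 1 (0.119) or knockout gel 2 (0.0606). JUNB rose from 85.0 to 116 CPM in knockout monolayers (log2 0.45, edgeR adjusted p = 8.13e-08). EGR1 rose there from 71.7 to 99.9 CPM (log2 0.48, edgeR adjusted p = 1.33e-07). The feedback phosphatase gene DUSP1, like CCN1, moved in opposite directions, and these are the 2 genes that fell in monolayers. The monolayer value of DUSP1 was chosen after it was seen. It fell from 58.3 to 46.0 CPM in knockout monolayers (log2 -0.34, edgeR adjusted p = 8.64e-05) and rose from 419 to 529 in knockout gels (log2 0.34, edgeR adjusted p = 1.06e-06). With culture 12 of the 16 rose in control cells and 11 in knockout cells, and none fell, against 16.0% and 20.1% higher of all genes. FOS, the classic target of the ternary complex, rose from 7.77 to 697 CPM in control gels (log2 6.48, edgeR adjusted p = 1.81e-39), and many of these genes are also in the dissociation list.

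Of 18 targets of GABP in mitochondria and translation, 2 rose and 0 fell in knockout monolayers, near the 9.60% of all genes in each direction. In knockout gels 7 rose and 1 fell, against 11.5% and 12.4% of all genes, and the medians were 0.04 and 0.12. TYMS, which makes thymidylate, rose from 333 to 386 CPM in knockout gels (log2 0.21, edgeR adjusted p = 0.000475). The difference between the cultures passed for 0 of the 18. Of 7 tested protease and inhibitor genes with ETS sites, 3 rose and 2 fell in knockout monolayers (9.60% and 9.60% of all genes), and 0 rose and 4 fell in knockout gels (11.5% and 12.4% of all genes). PLAU, which encodes urokinase, fell from 439 to 301 CPM in knockout gels (log2 -0.54, edgeR adjusted p = 8.6e-12) and did not pass in monolayers, at 447 CPM in control and 466 in knockout cells. TIMP1, which blocks metalloproteinases, had 172 CPM in control and 283 in knockout monolayers (log2 0.72, edgeR adjusted p = 6.57e-14), and 186 and 191 in gels, where it did not pass.

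Of the 10 genes, ELF4 had the widest range of group means, 0.59 on the log2 scale. Of 10764 genes outside the lists with a mean of at least 5 CPM, the nearest to it over the 8 libraries was MAFF, a small MAF transcription factor, with a root mean square difference of 0.0381 in centred log2 CPM. HOMER3, a scaffold protein gene, followed at 0.0384 and LAMB3, a laminin chain gene, at 0.0401. MAFF had 82.8 ± 5.90 CPM in control and 70.9 ± 2.60 in knockout monolayers, and 101 ± 0.668 in control and 86.0 ± 0.478 in knockout gels. In these genes, as in ELF4, the control gels are highest and the knockout monolayers lowest. They were picked for lying nearest to ELF4 in these same libraries, so the shared order follows from the choice.

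On GRCh38, ETS1 lies on chromosome 11 (128458761 to 128587558, minus strand), ETS2 on chromosome 21 (38805307 to 38824955, plus) and GABPA on the same chromosome (25734570 to 25772460, plus). ELK1 lies on chromosome X (47635521 to 47650604, minus), as does ELF4 (130064874 to 130110716, minus). ELK3 and ETV6 lie on chromosome 12 (96194382 to 96269835 and 11649854 to 11895402, both plus). ELK4 lies on chromosome 1 (205597556 to 205631962, minus), ELF1 on chromosome 13 (40932028 to 41061440, minus) and ERF on chromosome 19 (42247572 to 42255157, minus). The counts are of whole genes, so they do not show which isoform of ETS1 or ETV6 was present.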

How the data were processed

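Messenger RNA of 8 libraries of MDA-MB-231 cells was measured. The authors deposited raw counts per gene symbol, and the submitters' processing notes name FastQC 0.11.9, STAR 2.7.9a, featureCounts, R 4.1.1 and the build hg38. Neither annotation nor strand setting is given in the sources used here.

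Of 61228 genes, 15568 were kept by filterByExpr at a minimum count of 10, with 99.89% of all counts. The test was the robust quasi-likelihood F-test of edgeR 4.0.16 (R 4.3.3) after TMM scaling, with 4 group means fitted to the 8 libraries (4 residual degrees of freedom, about 34.3 with the spread shared across genes). Two-sided p values were adjusted over the 15568 genes by Benjamini-Hochberg, with a threshold of 0.05. Library totals of 15824504 to 23896899 counts set the precision, and replicates varied more than counting error (chi-squared per degree of freedom 2.54 to 6.31). The script was tested on simulated data.

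The members and lists were chosen with earlier results of these data known. All members are named in each comparison, and of each other list up to 3 genes with the smallest adjusted p. For the member with the widest range of group means, the 3 nearest genes by centred log2 CPM (prior count 2) are named. Gene models are GENCODE's on GRCh38, and promoters RefSeq's. Alternatives were relative log expression factors, library size alone, no filter, a mean of at least 5 CPM, DESeq2 1.42.0, the replicate block, a correction for length and GC content (known for 97.5% of tested genes), the 2 groups alone, and leaving out each library.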

Additional observations from a re-analysis of the deposited data

Results flagged for a closer look

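The knockout effect differed between gels and monolayers, by the edgeR interaction test, for 2 of the 10 ETS genes, both with a negative difference. It also differed for 23 of 119 tested genes of the other lists, 7 with a positive and 16 with a negative difference. Over all genes tested the shares were 2.67% positive and 3.94% negative. The lists were chosen with earlier results of these data known, so their counts are a description. Named here are up to 3 genes with the smallest adjusted p of each list of ETS genes, partners and targets. Each value is the log2 effect of the knockout in gels less its effect in monolayers. It was -0.31 for ELK3 and -0.32 for ERF. Among the remaining ETS genes it was -0.34 for EHF (edgeR adjusted p = 0.0146) and -0.36 for SPDEF (edgeR adjusted p = 0.0456), and the calls were lost in 6 and 10 of 15 alternatives, with adjusted p values of up to 0.150 and 0.339. Leaving out control monolayer 1, control gel 1 or control gel 2 ended both calls.

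Among partners and regulators it was 0.27 for NCOR1, 0.27 for SP1 and 0.46 for MRTFB, with calls lost in 6, 5 and 9 of 15 alternatives and adjusted p values of up to 0.387, 0.211 and 0.168. Leaving out any of the same 3 control libraries ended each of these calls. Among serum response genes it was 0.72 for CCN1, 0.67 for DUSP1 and -0.43 for JUNB. Among proteases and inhibitors it was -0.70 for MMP14, -0.68 for TIMP1 and -0.61 for PLAU. These 6 kept the call in 15 of 15 alternatives.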

How the results depend on the processing

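Of 790 values of the 10 genes under the alternatives, 739 kept their direction and side of the threshold or stayed uncalled, 33 lost a call, 18 gained one and 0 reversed a call. Among uncalled values 62 changed sign, at sizes of up to 0.14 (log2). Of 20 called values, 9 passed in every alternative run. With DESeq2 0 of the 10 genes were lower in knockout monolayers, 1 in control gels and 1 in the interaction. After correction for length and GC content 2 were higher in knockout gels and 1 lower in the interaction. With relative log expression factors, library size alone, no filter or the replicate block 1 was higher in the interaction. Over all genes DESeq2 called 852 higher and 983 lower in knockout monolayers, 1224 lower in knockout gels, 1478 higher and 953 lower in control gels, 1791 lower in knockout gels against knockout monolayers, and 364 lower in the interaction, against 1494, 1495, 1935, 2486, 1672, 2793 and 613. Library size alone called 1239 higher and 2804 lower in control gels.

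Leaving out each library in turn gave 0 to 3 of the 10 genes higher and 0 to 1 lower in knockout monolayers, 0 to 2 higher in knockout gels, 2 to 5 higher and 0 to 2 lower in control gels, and 0 to 1 higher and 0 to 2 lower in the interaction. Over all genes it gave 767 to 1610 higher and 1028 to 1755 lower in knockout monolayers, 876 to 2085 and 1230 to 1995 in knockout gels, 1313 to 2674 and 796 to 2042 in control gels, and 123 to 715 and 290 to 640 in the interaction. Across genes, the differences between replicates correlated at -0.063 to 0.082 for pairs of groups, so no pairing by replicate number was seen. Counting noise enters these differences, so this cannot exclude a pairing. With the replicate block more genes were called in each comparison, in knockout monolayers 1603 higher and 1584 lower against 1494 and 1495. With 2 libraries in a group, leaving out 1 library ended several calls of the 10 genes. The cause of these changes was not tested.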
